A study of Mus musculus with 6 samples.

Results

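The auditory nerve holds the spiral ganglion neurons that carry signals out of the cochlea, together with their Schwann cells, satellite glia and resident macrophages. Its cathepsin, V-ATPase and LAMP genes were compared between 3 old CBA/CaJ mice (2.5 years) and 3 young ones (2 months), an inbred strain with no engineered allele or treatment named in the labels. Each library was made from the nerves of both cochleas of 1 mouse. The genes were taken by symbol, as every row of the deposited table named Cts plus 1 letter, Atp6v, Atp6ap or Lamp plus a number, which gave 42 of 17607 genes. Of these, 40 had enough reads to be tested. Atp6v1b1 and Ctsg did not, with at most 11 and 20 reads in a library.

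Lysosomes break down what a cell takes up or discards. Cathepsins are their proteases, the V-ATPase is the proton pump that makes the lumen acidic so that the cathepsins can work, and LAMP proteins line the inside of the lysosomal membrane. The pump has a V1 sector that splits ATP and a V0 sector in the membrane that carries protons, and several subunits come as isoforms that are used by different cell types. Some genes of these families are present in nearly all cells, while others are most abundant in macrophages, dendritic cells or osteoclasts. The genes were therefore read in groups by known role. The groups were 8 phagocyte-type genes, 24 general lysosome genes and 10 others, which comprise tissue-restricted pump subunits, leukocyte granule proteases, Lamp5 and the row named Atp6v0c-ps2.

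The libraries held 34587979, 38486427 and 38835751 reads in old 1, 2 and 3 and 40841478, 39973114 and 35213213 reads in young 1, 2 and 3. All 10 neuron markers and all 8 Schwann cell markers were detected well enough to be tested. Of all 15882 genes tested, 34.6% passed an adjusted p under 0.05 in limma, 15.9% higher and 18.7% lower in old nerves. Values are normalised read counts. Log2 fold changes give old minus young with their standard error (SE), taken on log2(value + 1), a scale that understates the change of low genes, and adjusted p-values are limma's with Benjamini-Hochberg adjustment over all genes tested. For 1 gene alone, the smallest p that an exact permutation test could give with 3 mice per age is 0.1.

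Of the 40 genes tested, 18 (45.0%) were higher and 2 (5%) were lower in old nerves, against 15.9% and 18.7% of all genes. Their median log2 fold change was 0.21, against -0.00 for all genes tested. In 22 of the 40 every old library lay above every young one and in 4 below, against 25.5% and 26.3% of all genes. Among phagocyte-type genes 5 of 8 were higher and none lower, with a median log2 fold change of 0.60. The 5 include Atp6v0d2, which had enough reads to be tested only through the old libraries. Among general lysosome genes 12 of 24 were higher and 1 was lower, with a median of 0.21. The general genes divided further, into 8 cathepsins and LAMPs, of which 7 were higher, and 16 pump subunits and accessory proteins, of which 5 were higher and 1 was lower. Whether the phagocyte-type and general groups differ was not tested. In these whole-nerve libraries, fewer cells of a type and less RNA per cell cannot be told apart.

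**Figure D1:**
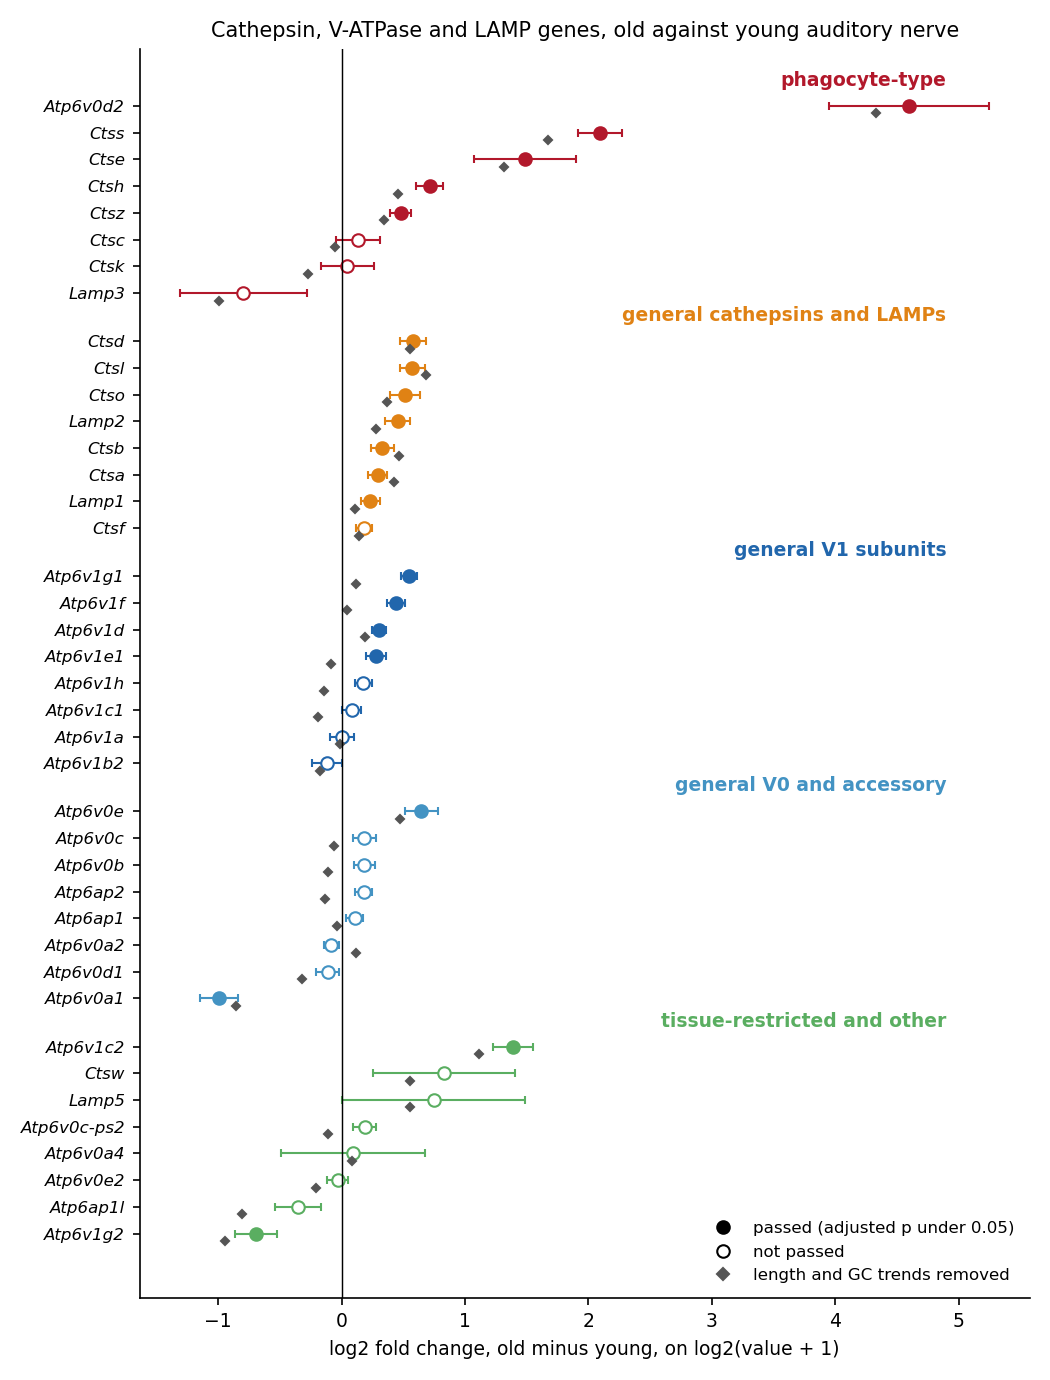
Log2 fold change (old minus young, on log2(value + 1)) of the 40 tested genes by group. Circles are limma's estimates with bars of 1 SE, filled where the adjusted p was under 0.05, and diamonds are the estimates after removal of length and GC trends. Atp6v0d2 and Ctss lie farthest to the right, general cathepsins and LAMPs all lie right of 0, and Atp6v0a1 and Atp6v1g2 are the filled points left of 0.

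The promoters of these genes give context for the groups. Many lysosomal genes share the palindrome TCACGTGA, the core of the CLEAR element to which the regulators TFEB and TFE3 bind. It contains the shorter E-box CACGTG. RefSeq promoters (GRCm38.p6, 250 bases before to 50 after each start) were at hand for 30 of the 42 genes. Searched on both strands, TCACGTGA stood in 5 of the 30 (16.7%), against 1.12% of 27025 genes, and all 5 were general genes. CACGTG stood in 9 (30.0%), against 8.09%. GAGGAAGT, a core of the sites of the macrophage factor PU.1, stood in 2 (6.67%), against 3.69%, and both were phagocyte-type genes. These matches describe letters and are not evidence of binding. Within the 250 bases before the start alone they fell to 3, 7 and 1 genes. The match is shown in capitals with up to 24 flanking bases for 4 general genes, of which Ctsd and Ctsa were higher in old nerves and Atp6v1a and Atp6v0d1 did not pass, and for both phagocyte-type genes, of which Ctss was higher and Ctsc did not pass. In Ctsc and Ctss the capitals read ACTTCCTC, which is GAGGAAGT on the opposite strand. The windows are chr7:142387895-142387950 (minus strand) for Ctsd, chr2:164833736-164833772 (plus) for Ctsa, chr16:44139360-44139415 (minus) for Atp6v1a, chr8:105566061-105566092 (minus) for Atp6v0d1, chr7:88277910-88277965 (plus) for Ctsc and chr3:95526760-95526791 (plus) for Ctss.
Ctsd: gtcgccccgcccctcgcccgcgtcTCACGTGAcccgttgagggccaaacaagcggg
Ctsa: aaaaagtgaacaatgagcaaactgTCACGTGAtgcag
Atp6v1a: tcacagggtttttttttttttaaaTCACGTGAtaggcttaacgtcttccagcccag
Atp6v0d1: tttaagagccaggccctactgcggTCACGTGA
Ctsc: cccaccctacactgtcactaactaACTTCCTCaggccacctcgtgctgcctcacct
Ctss: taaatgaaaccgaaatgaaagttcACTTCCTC
The first capital lies 99 bases before the start in Ctsd, 13 in Ctsa, 132 in Atp6v1a, 4 in Atp6v0d1, 151 in Ctsc and 2 in Ctss.

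Ctss had the largest log2 fold change among the cathepsins tested. It encodes cathepsin S, a cysteine protease that trims the invariant chain in antigen-presenting cells and stays active at neutral pH. Its normalised counts were 3695, 3395 and 2397 in old 1, 2 and 3 and 871, 668 and 662 in young 1, 2 and 3. The lowest old library was well above the highest young one. The means were 3162 ± 679 in old and 734 ± 119 in young nerves (SD, n = 3 each), a ratio of 4.31, and the log2 fold change was 2.09 ± 0.18 (SE, adjusted p = 0.0040). The gene kept its call in all 22 alternatives run.

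Ctsk, which encodes the collagen-degrading cathepsin K of osteoclasts, lies 17398 bp from Ctss on chromosome 3 (95499210 to 95509387 for Ctsk and 95526786 to 95556405 for Ctss, mm10). It had counts of 485, 608 and 360 in old and 516, 506 and 369 in young nerves. The groups overlapped and the log2 fold change was 0.05 ± 0.22 (adjusted p = 0.888), so the neighbouring pair differed in call. Whether the log2 fold changes of the pair differ was not tested.

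Ctsh and Ctsz encode cysteine cathepsins that trim peptides from their ends, as an aminopeptidase and a carboxypeptidase. Ctsh had counts of 2353, 2405 and 1887 in old and 1266, 1414 and 1352 in young nerves, with no overlap, and a log2 fold change of 0.71 ± 0.11 (adjusted p = 0.0059). Ctsz had 5308, 5984 and 4836 in old and 3899, 3726 and 3915 in young nerves, again without overlap, and a log2 fold change of 0.48 ± 0.09 (adjusted p = 0.0085). Per kb, Ctsz was the most abundant phagocyte-type transcript at both ages, and its relative rise was the smallest of the 5 that passed. Ctsc encodes cathepsin C, which activates the serine proteases of leukocyte granules. Its counts were 1172, 1332 and 823 in old and 1100, 938 and 948 in young nerves, overlapping, with a log2 fold change of 0.13 ± 0.18 (adjusted p = 0.591).

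Of the phagocyte-type genes 3 had low counts. Atp6v0d2 encodes the form of the V0 subunit d that is abundant in osteoclasts and macrophages, where it is known from mouse studies for its part in cell fusion. It had 127, 124 and 37 reads in old and 6, 2 and 1 reads in young nerves, or normalised counts of 134, 118 and 35.8 against 5.64, 1.97 and 1.10. All old libraries lay above all young ones, and old 3 was the lowest of the old. The ratio of reads, adjusted for library size, was 31.5 (95% exact interval 16.4 to 69.6, counting error only). The log2 fold change was 4.60 ± 0.65 (adjusted p = 0.0054), a call kept in the 21 alternatives that tested it. The gene had enough reads to be tested only through the old libraries, so its call in those fits adds no support of its own. Ctse, an aspartic protease of immune cells and stomach, had normalised counts of 63.4, 30.4 and 78.3 in old and 24.4, 17.7 and 14.3 in young nerves. Old 2 stood only just above young 1. Its log2 fold change was 1.49 ± 0.41 (adjusted p = 0.0302), and leaving out old 1, old 3, young 2 or young 3 put the adjusted p at 0.0955, 0.0751, 0.0891 or 0.0963. Lamp3, a LAMP of mature dendritic cells, had 6.34, 14.2 and 5.80 in old and 16.9, 21.6 and 8.81 in young nerves. These overlapped, and its log2 fold change of -0.80 ± 0.51 did not pass (adjusted p = 0.262).

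**Figure D2:**
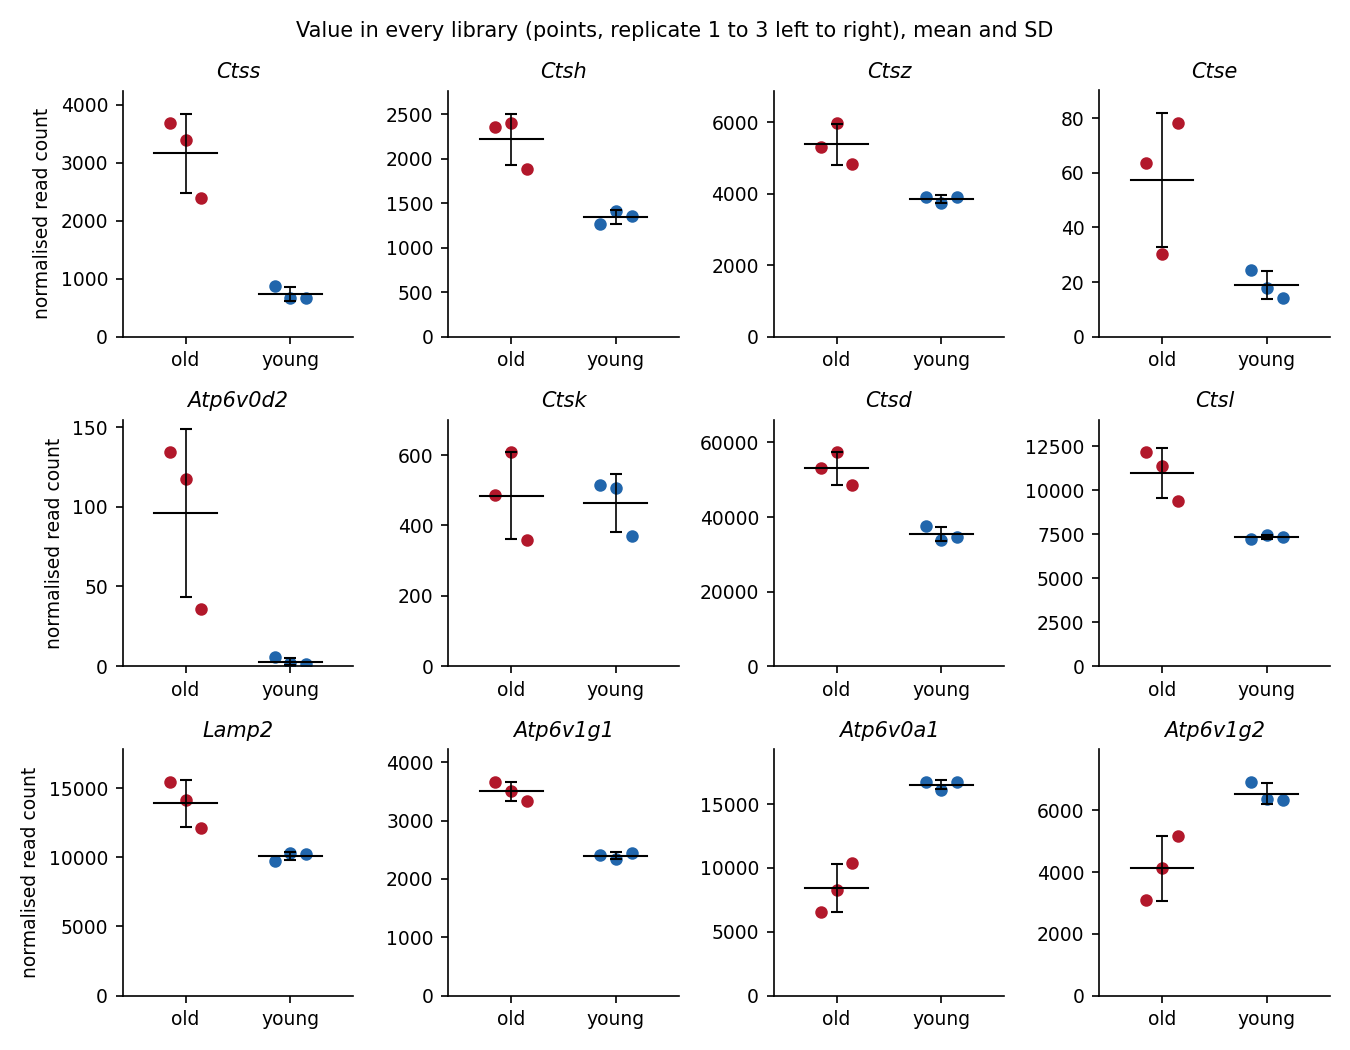
Normalised read counts (linear axes starting at 0) of 12 genes in each library, old left of young, with replicates 1 to 3 in order from left to right. Long bars are means and thin bars 1 SD (n = 3 each). Old and young points overlap in Ctsk only, old points lie above young ones in 9 genes, and below them in Atp6v0a1 and Atp6v1g2.

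Macrophage markers moved in the same direction as the phagocyte-type genes. Of 18 markers 14 (77.8%) were higher and none lower in old nerves, against 15.9% and 18.7% of all genes. Cx3cr1, Mrc1, Tmem119 and Cd74 did not pass. The median log2 fold change of the 18 was 1.23. The summed count of the 18 markers was 248%, 296% and 193% of the young mean in old 1, 2 and 3, and 120%, 86.8% and 92.9% in young 1, 2 and 3. The summed count of the 8 phagocyte-type genes was 178%, 187% and 140% in the old libraries and 104%, 98.3% and 98.0% in the young ones. Old 2 was the highest and old 3 the lowest old library for both sums. The part that macrophage number has in the rise was not tested.

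No tested marker of osteoclasts, dendritic cells or neutrophils was higher in old nerves. Of all genes 15.9% were higher and 18.7% lower. Of 7 osteoclast markers 4 could be tested and 1 of these (25%), Itgb3, was lower. Acp5, which encodes the acid phosphatase of osteoclasts, had a log2 fold change of -0.02 (adjusted p = 0.976). Dcstamp and Calcr were at 0 in several libraries of both ages, and Ocstamp was not analysed here. Dendritic cell markers numbered 5 tested of 7, with 1 (20%), Fscn1, lower and none higher. That share was near the 18.7% of all genes. Xcr1 was at 0 in 1 old and 1 young library. None of the 8 neutrophil markers passed. Their summed counts varied widely within each age, at 2690, 305 and 2201 in old 1, 2 and 3 and 2780, 595 and 296 in young 1, 2 and 3. No T or NK cell marker had enough reads to be tested. Osteoblast markers were lower in 5 of 9 (55.6%), against 18.7% of all genes. Their part in the results above was not tested.

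Among the general lysosomal hydrolases the abundant cathepsins were higher in old nerves. Ctsd encodes the aspartic protease cathepsin D and was the most abundant gene per length at both ages, with 24925 counts per kb in old and 16649 in young nerves. Its counts were 53116, 57404 and 48524 in old and 37625, 33905 and 34710 in young nerves, and every old library exceeded every young one. The log2 fold change was 0.58 ± 0.11 (adjusted p = 0.0085). Ctsl, a cysteine endopeptidase, had 12174, 11407 and 9401 in old and 7217, 7478 and 7357 in young nerves. Its groups did not overlap either, and its log2 fold change was 0.57 ± 0.10 (adjusted p = 0.0081). Ctso, a less studied cysteine cathepsin, had 1621, 1440 and 1217 in old and 980, 1094 and 912 in young nerves. That was a log2 fold change of 0.51 ± 0.12 (adjusted p = 0.0191), with adjusted p of 0.0510 when old 2 was left out, 0.0544 for young 1 and 0.0699 for young 3.

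Ctsb encodes cathepsin B, a cysteine protease that cuts inside proteins and from their carboxyl end. It had counts of 59054, 60068 and 57951 in old and 45879, 47219 and 47742 in young nerves. The libraries of each age lay close together and apart from those of the other age. Its log2 fold change was 0.33 ± 0.09 (adjusted p = 0.0318), and leaving out any library but old 3 put the adjusted p between 0.0558 and 0.105. Ctsa, the carboxypeptidase that protects beta-galactosidase and neuraminidase, had a log2 fold change of 0.29 ± 0.08 (adjusted p = 0.0294). Its call was lost without old 2 or any 1 of the young libraries, at adjusted p of 0.0715 to 0.0963. The deposited spans of Ctsa and Pltp share 1515 bp on opposite strands, 18.6% of Ctsa, and whether reads were counted by strand is not given. Ctsf, a cysteine cathepsin, did not pass, with a log2 fold change of 0.18 ± 0.06 (adjusted p = 0.0590). It did pass in DESeq2 (adjusted p = 0.0337) and by the authors' deposited FDR (0.0464).

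LAMP-1 and LAMP-2 are the major glycoproteins of the lysosomal membrane, and LAMP-2 also takes part in autophagy. Lamp2 had counts of 15469, 14119 and 12123 in old and 9749, 10335 and 10227 in young nerves, without overlap, and its log2 fold change was 0.45 ± 0.10 (adjusted p = 0.0139). Lamp1 had 29130, 28696 and 27525 in old and 23720, 24501 and 24451 in young nerves, also without overlap. Its log2 fold change was 0.23 ± 0.08 with an adjusted p of 0.0499, just inside the threshold, and the adjusted p ranged from 0.0269 (without old 3) to 0.151 (without young 1) with each library left out. The 8 general cathepsins and LAMPs summed to 135%, 138% and 125% of the young mean in the old libraries and to 99.9%, 99.7% and 100.4% in the young ones. None of the 8 had groups that overlapped, where 25.5% of all genes had every old library above every young one.

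The pump genes went in both directions. Of 16, 8 had every old library above every young one and 2 every one below, against 25.5% and 26.3% of all genes, and their median log2 fold change was 0.18. The 16 general V-ATPase genes summed to 93.9%, 101% and 106% of the young mean in old 1, 2 and 3, and to 105%, 97.2% and 98.3% in young 1, 2 and 3, so that the groups overlapped. In the V1 sector 4 (50%) of 8 general subunits were higher and none lower, against 15.9% and 18.7% of all genes. Atp6v1g1, the widely expressed form of the stalk subunit G, had counts of 3666, 3498 and 3342 in old and 2410, 2340 and 2446 in young nerves. No old library came near a young one, and the log2 fold change was 0.55 ± 0.06 (adjusted p = 0.0046). Atp6v1f, of the central rotor, had a log2 fold change of 0.44 ± 0.07 (adjusted p = 0.0074), and Atp6v1d, also of the rotor, one of 0.30 ± 0.06 (adjusted p = 0.0103). Atp6v1d lost its call without young 3.

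Atp6v1e1, a stalk subunit, had the highest count per kb among the pump rows once the row Atp6v0c-ps2 was set aside. The transcript length on file for that symbol belongs to another locus. That row spans the same bases as Atp6v0c, so reads of the locus may be divided between both rows. The locus as a whole was not ranked. Atp6v1e1 had counts of 10260, 10569 and 12166 in old and 9226, 8791 and 9132 in young nerves. The groups did not overlap and its log2 fold change was 0.28 ± 0.08 (adjusted p = 0.0373), but the call was lost without old 2 or any 1 of the young libraries. The catalytic subunits did not pass. Atp6v1a, the ATP-splitting subunit A, had a log2 fold change of 0.00 ± 0.10, with 14209, 14548 and 14721 in old and 16532, 13573 and 13496 in young nerves. Atp6v1b2, its partner subunit B, had 15043, 16999 and 20679 in old and 19696, 19205 and 18004 in young nerves, and a log2 fold change of -0.12 ± 0.12. Both pairs of groups overlapped. The control subunits Atp6v1c1 and Atp6v1h did not pass either, with log2 fold changes of 0.08 and 0.18.

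Among the 6 general genes of the V0 sector 1 (16.7%) was higher and 1 (16.7%) lower, near the 15.9% and 18.7% of all genes. Atp6v0e, a small membrane subunit, had counts of 2518, 2300 and 1929 in old and 1273, 1376 and 1662 in young nerves, and a log2 fold change of 0.65 ± 0.13 (adjusted p = 0.0118). The nearest libraries were old 3 and young 3, and the groups did not overlap. Atp6v0a1, the isoform of the large membrane subunit a that prevails in neurons and their synaptic vesicles, had 6589, 8303 and 10409 in old and 16695, 16093 and 16763 in young nerves. Every old library lay far below every young one, and the old libraries spread more. The means were 8434 ± 1913 in old and 16517 ± 369 in young nerves (SD, n = 3 each), and the log2 fold change was -0.99 ± 0.15 (adjusted p = 0.0063), a call kept in all 22 alternatives run.

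The proton-carrying ring subunits Atp6v0b and Atp6v0c both had a log2 fold change of 0.18, Atp6v0a2 had -0.08 and Atp6v0d1, the widely expressed form of subunit d, had -0.11. None of these passed. The row named Atp6v0c-ps2 spans 99.98% of the same bases and strand as Atp6v0c on chromosome 17, so their reads cannot be told apart, and its log2 fold change of 0.19 did not pass. Of the accessory proteins, Atp6ap2, the prorenin receptor, had a log2 fold change of 0.18 (adjusted p = 0.0779). It did pass in DESeq2 (adjusted p = 0.0390) and by the authors' deposited FDR (0.0472). Atp6ap1, which helps to assemble the pump, had counts of 13942, 14707 and 13395 in old and 13278, 12642 and 13137 in young nerves, and 0.11 ± 0.07 (adjusted p = 0.270). Its groups did not overlap but differed by little.

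Tissue-restricted members went in both directions. Atp6v1c2, the form of subunit C known from kidney and lung epithelia, had counts of 474, 356 and 462 in old and 143, 187 and 161 in young nerves. The old libraries were all clearly higher, with a log2 fold change of 1.39 ± 0.17 (adjusted p = 0.0046) that kept its call in all 22 alternatives run. Markers of ion-transporting epithelium were higher in 3 (75%) of 4 tested (Slc26a4, Scnn1a and Lrp2), against 15.9% of all genes. The part of these markers in the rise of Atp6v1c2 was not tested. Atp6v1g2, the brain form of subunit G, had 3083, 4126 and 5181 in old and 6929, 6360 and 6335 in young nerves. All old libraries were lower, with a log2 fold change of -0.69 ± 0.17 (adjusted p = 0.0213), and leaving out any 1 of the young libraries put the adjusted p between 0.0598 and 0.0641. Its deposited span shares 806 bp with Nfkbil1 on the opposite strand, 21.4% of its length.

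The other restricted members did not pass. Atp6v0e2, the more abundant partner of Atp6v0e per kb, had a log2 fold change of -0.03. Atp6ap1l had -0.36 (adjusted p = 0.176), at counts of 90.9, 117 and 109 in old and 133, 117 and 157 in young nerves. At counts of 76.4 or less in every library, Lamp5, Ctsw, a protease of killer lymphocytes, and Atp6v0a4, the kidney form of subunit a, had log2 fold changes of 0.75, 0.83 and 0.09. For Atp6v0a4 the sign rests on the log2(value + 1) scale, since edgeR gave -0.07 and its mean was 11.1 in old and 11.8 in young nerves. Atp6v1b1, the kidney and inner ear form of subunit B, had 11, 7 and 6 reads in old and 6, 4 and 1 in young nerves, and Ctsg, a neutrophil protease, had 5, 0 and 20 in old and 12, 1 and 1 in young nerves. Neither was tested. Atp6v1e2, Atp6v1g3 and the placental cathepsins were not analysed here.

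The isoform make-up of the pump was compared as shares of counts per kb within each subunit. All counts per kb use the longest coding transcript on file, which need not be the one expressed. Atp6v0a1 made up 50.6%, 55.8% and 64.8% of subunit a in old 1, 2 and 3 and 74.9%, 74.4% and 74.7% in young 1, 2 and 3. Tcirg1, the osteoclast and immune cell form of subunit a, whose own log2 fold change was 0.38 ± 0.11 (adjusted p = 0.0331), made up 27.6%, 24.4% and 17.4% in old and 11.7%, 11.6% and 11.2% in young nerves. Neither share overlapped between the ages. Atp6v1g2 made up 46.2 ± 7.55% of subunit G in old and 66.9 ± 1.16% in young nerves (SD, n = 3 each). Atp6v1g1 thus exceeded Atp6v1g2 on average in old nerves and was the smaller share in every young one. In old 3, Atp6v1g2 was still the larger share at 53.5%, and Atp6v0a1 was the largest share of subunit a in every library.

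The restricted or minor isoforms of other subunits had small shares. Atp6v0e made up 22.2 ± 3.60% of subunit e in old and 15.1 ± 2.54% in young nerves, and Atp6v1c2 made up 9.37 ± 1.35% of subunit C in old and 4.02 ± 0.82% in young nerves. Atp6v0d2 was 1.20 ± 0.73% of subunit d in old and 0.03 ± 0.02% in young nerves. Within the cysteine cathepsins Ctss made up 9.39 ± 1.53% in old and 3.05 ± 0.52% in young nerves, while Ctsb, the largest share, made up 50.5 ± 2.47% in old and 55.7 ± 0.78% in young nerves (SD, n = 3 each). The exact two-sided permutation p of each of these shares was 0.1, the smallest that 3 against 3 allows, and 0.15 after adjustment over the 24 shares compared.

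**Figure D3:**
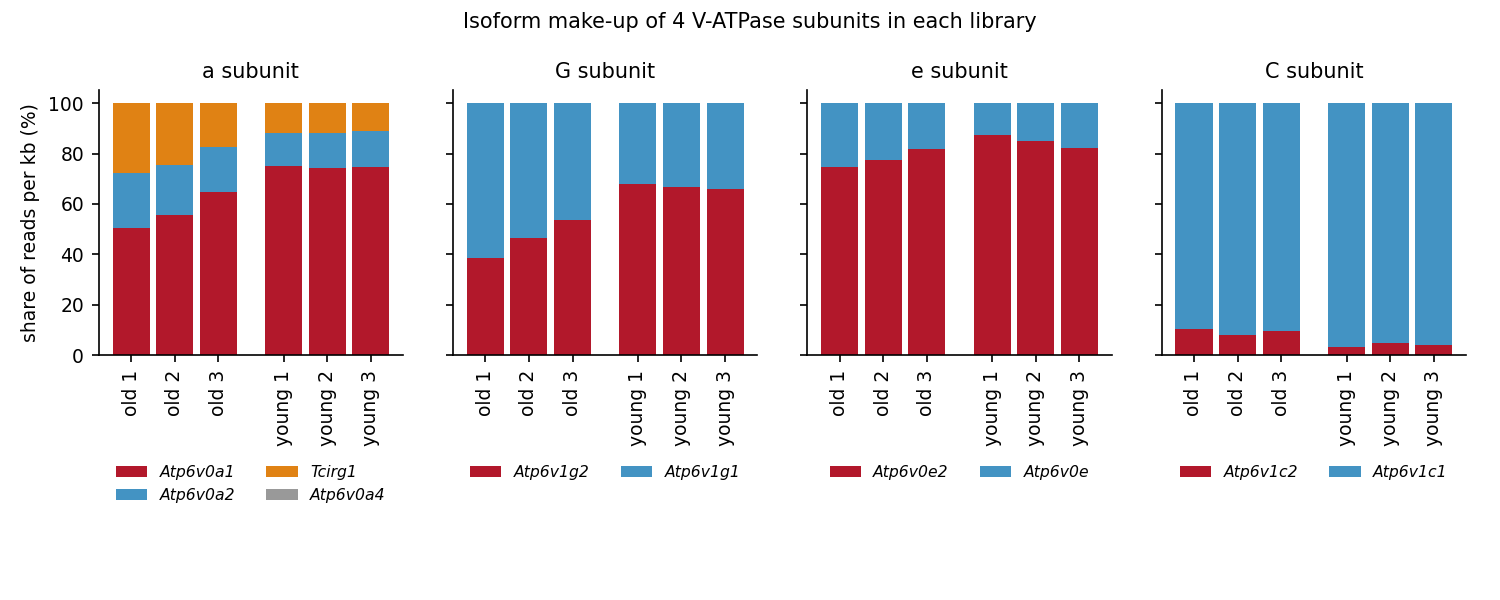
Share of counts per kb (%, axis starting at 0) taken by each isoform of V-ATPase subunits a, G, e and C in each library, old libraries left of young ones. The red share of Atp6v0a1 is 50.6% to 64.8% in the old libraries and 74.4% to 74.9% in the young ones, and Atp6v0a4 is too small to be seen.

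Neuron markers moved in the direction of the 2 pump genes that fell. Of 10 neuron markers 4 (40%) were lower and none higher (Rbfox3, Elavl3, Nefm and Nefl), against 18.7% and 15.9% of all genes. The other 6 did not pass, and the median log2 fold change of the 10 was -0.50. Their sum was 55.0%, 72.1% and 83.8% of the young mean in old 1, 2 and 3, and 110%, 95.4% and 95.0% in young 1, 2 and 3. The sum of Atp6v0a1 and Atp6v1g2 was 41.9%, 53.9% and 67.6% in the old libraries and 102%, 97.4% and 100.2% in the young ones. Old 1 was lowest for both sums. These 2 genes were summed because they had passed as lower in the same libraries. The low old values of their sum follow from that choice and are no separate result. Schwann cell markers summed to 92.7%, 102% and 105% in old and 109%, 97.3% and 93.4% in young libraries. The part that neuron number has in the fall was not tested.

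**Figure D4:**
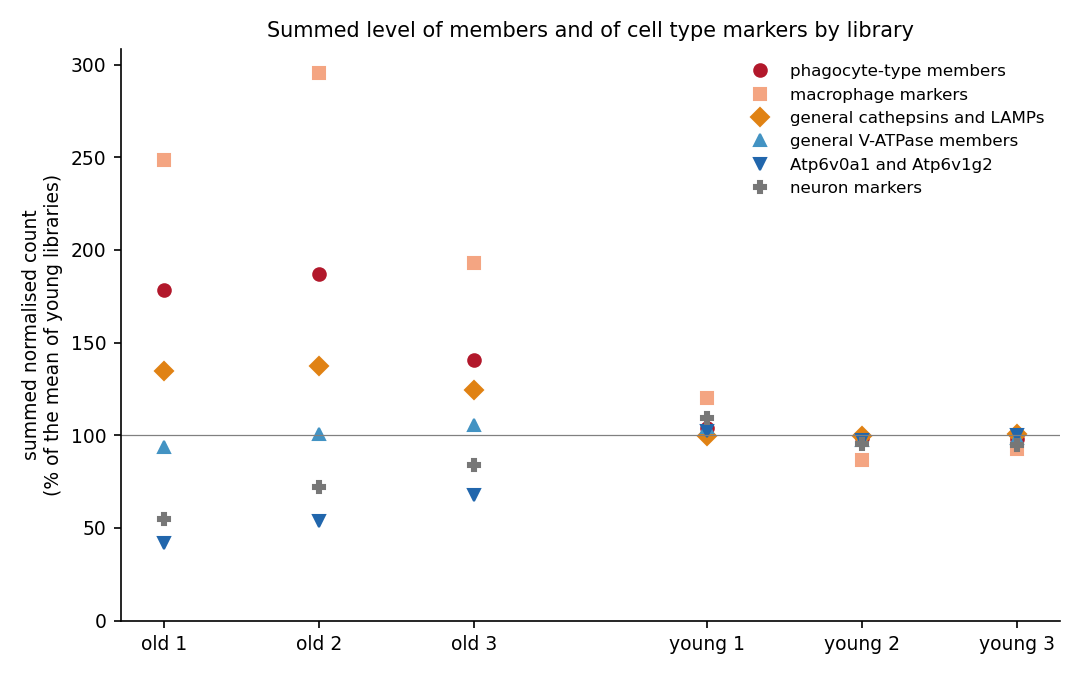
Summed normalised count of each gene group in each library, in % of the mean of the young libraries (axis starting at 0), old libraries left of young ones. Macrophage markers (193% to 296%) and phagocyte-type genes (140% to 187%) are highest in the old libraries, and Atp6v0a1 with Atp6v1g2 (41.9% to 67.6%) and neuron markers (55.0% to 83.8%) are lowest. Atp6v0a1 and Atp6v1g2 were summed because they had passed as lower in these libraries.

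Calls among the pump genes changed when trends in transcript length and GC content were removed together, and the share of either was not tested. Across 15654 genes with a length, log2 fold change fell with length (Spearman's rho -0.377, across genes, which are not independent), and the 1567 genes with the shortest transcripts, with a median of 982 nt, had a median of 0.31 in log2 fold change. The general V1 genes had a median length of 2060 nt, against 3536 nt for general cathepsins and LAMPs and 3101 nt for all tested genes. These lengths are of the longest coding transcript on file, which need not be the one expressed. For Ctsl that was 6168 nt. The contrast between the groups with trends removed rests on this choice, and other lengths were not tried. With these trends removed as smooth curves, 10.2% of all genes were higher and 12.2% lower. None of the general V1 genes then passed, Atp6v1g1 having a log2 fold change of 0.12 (adjusted p = 0.163), Atp6v1f 0.04, Atp6v1d 0.19 and Atp6v1e1 -0.09. The restricted V1 forms Atp6v1c2 (1.11, adjusted p = 0.0118) and Atp6v1g2 (-0.94, adjusted p = 0.0167) still passed. The median over the 16 general pump genes became -0.07, with Atp6v0e (0.48) still higher and Atp6v0a1 (-0.85) still lower.

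Most cathepsins kept their call with that step. Of the 8 general cathepsins and LAMPs 6 stayed higher with an unchanged median of 0.39, and Lamp1 was lost at a log2 fold change of 0.10 (adjusted p = 0.346). Of the phagocyte-type genes 4 stayed higher, with a median of 0.40, among them Ctss at 1.67 and Atp6v0d2 at 4.33, while Ctse kept a log2 fold change of 1.32 but did not pass (adjusted p = 0.0616). Atp6ap1l, which had not passed before, was lower at -0.81 (adjusted p = 0.0280), and Atp6v1g2 stayed lower at -0.94.

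**Figure D5:**
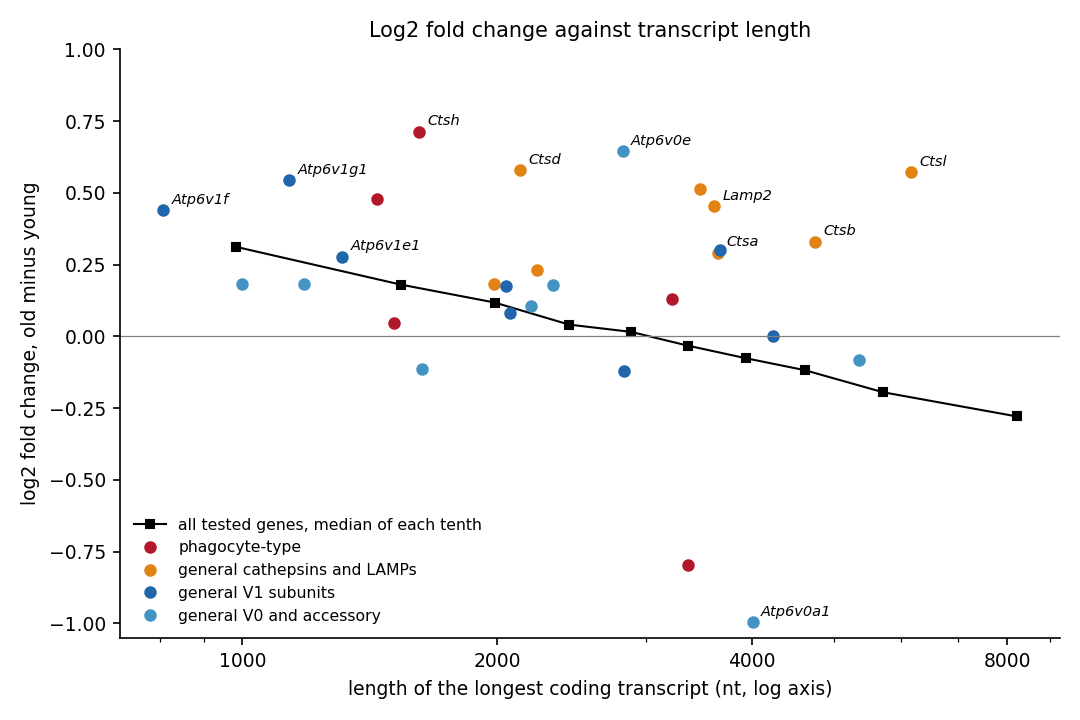
Log2 fold change (old minus young) against length of the longest coding transcript (nt, log axis). Squares are medians over 10 equal bins of all tested genes by length, and circles are phagocyte-type and general genes, of which Atp6v0d2, Ctss and Ctse, above the axis, are left out. The medians run down from 0.31 at 982 nt to -0.28 at 8220 nt, with Atp6v1e1 near that line and Ctsl, Ctsb and Ctsd above it.

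Other genes of the lysosome were read by role as well. Of 96 tested 32 (33.3%) were higher and 17 (17.7%) lower, with a median log2 fold change of 0.11. The share lower was close to the 18.7% of all genes. With length and GC trends removed 22 (22.9%) were higher and 5 (5.2%) lower, against 10.2% and 12.2% of all genes. Of 4 cystatins, which inhibit cysteine cathepsins, 3 (75%) were higher, against 15.9% of all genes. Cst7, which encodes cystatin F, the inhibitor that immune cells send to their own lysosomes, had counts of 309, 378 and 175 in old and 1.88, 3.93 and 2.20 in young nerves. All old libraries were far above all young ones, and the log2 fold change was 6.26 ± 0.38 (adjusted p = 0.0023). Cst7 had enough reads to be tested only through the old libraries. Cstb (0.51 ± 0.10, adjusted p = 0.0094) and Cst6 (0.60 ± 0.14, adjusted p = 0.0169) were also higher by log2 fold change, though Cstb did not pass with length and GC trends removed.

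The hydrolase list, which also holds the membrane proteins Laptm4a and Laptm4b, had 10 of 36 genes (27.8%) higher and 2 (5.6%) lower. Of all genes 15.9% and 18.7% were. Among them the acid ceramidase gene Asah1 was higher, with a log2 fold change of 0.47 ± 0.08 (adjusted p = 0.0074), and the glycogen-degrading Gaa was lower, at -0.64 ± 0.11 (adjusted p = 0.0080). Of 18 lysosomal membrane genes 9 were higher and 4 lower, and 7 higher and none lower with length and GC trends removed. Of these, Gpnmb (4.51 ± 0.46) and Cd68 (2.19 ± 0.21) had the largest log2 fold changes among those named (adjusted p = 0.0040 for each). The transporter gene Abca2 was lower (-0.75 ± 0.11, adjusted p = 0.0058). Among 6 cofactor genes, Npc2, a cholesterol carrier (0.64 ± 0.09, adjusted p = 0.0056), and Gm2a, the activator of ganglioside breakdown (0.50 ± 0.08, adjusted p = 0.0060), were higher and none lower.

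Genes that deliver enzymes to lysosomes or govern the pump also went in both directions. Of 9 sorting genes 1 (11.1%) was higher and 5 (55.6%) were lower, against 15.9% and 18.7% of all genes. Their median log2 fold change was -0.20. With length and GC trends removed 1 (11.1%) was lower, near the 12.2% of all genes, and none higher, with a median of 0.06. The 1 that stayed lower was the adaptor gene Gga3, at a log2 fold change of -0.84 ± 0.11 (adjusted p = 0.0049). Igf2r, the large mannose 6-phosphate receptor, had -0.28 ± 0.07 and Gga1 -0.29 ± 0.07 (adjusted p = 0.0206 and 0.0211), and both values turned to 0.08 and 0.06 with the trends removed. Igf2r kept its call in 2 and Gga1 in 1 of the 6 fits that left out a library.

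Of 10 pump partners 3 (30%) were higher and 3 (30%) lower, against 15.9% and 18.7% of all genes. With the trends removed 1 (10%) was higher and 2 (20%) were lower, against 10.2% and 12.2% of all genes. The assembly factor Vma21 was higher (0.29 ± 0.07, adjusted p = 0.0186), but not with the trends removed (adjusted p = 0.0630) or when young 2 or young 3 was left out. Wdr7, of the complex that helps to assemble the pump (-0.61 ± 0.10, adjusted p = 0.0078), and Ncoa7, which binds the pump (-0.51 ± 0.11, adjusted p = 0.0147), were lower. Of 13 regulators 4 (30.8%) were higher and 3 (23.1%) lower. With the trends removed 1 (7.69%) was higher, near the 10.2% of all genes, and none lower. Tfe3, which encodes a factor that binds the CLEAR element, had a log2 fold change of -0.33 ± 0.06 (adjusted p = 0.0093), and -0.14 (adjusted p = 0.186) with the trends removed. Tfeb, chosen after its value was seen, had -0.52 ± 0.15 (adjusted p = 0.0336), and -0.23 (adjusted p = 0.180) with the trends removed. Lamtor1 (0.25 ± 0.07, adjusted p = 0.0280) and Rragd (0.28 ± 0.08, adjusted p = 0.0288) were higher, but each kept its call in only 1 of the 6 fits that left out a library, and Lamtor1 was lost with the trends removed (adjusted p = 0.990).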

How the data were processed

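Auditory nerve RNA of 3 old and 3 young mice was sequenced, with the nerve dissected out of the cochlea and libraries made with a TruSeq RNA kit, per the labels' protocols. TopHat2, Partek and DESeq2 are named, with mm10 as the build, per the submitters' processing notes, without versions. The deposited signal values are counts per gene that the authors divided by 1 size factor per library, as the values show. Whole reads were recovered from them (99.93% to 99.97% of values whole within 0.1). The authors' deposited p-values were not used. Their deposited FDR was, as an alternative, with their signed fold change, a score in which a fall is written as the negative inverse.

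All 6 libraries entered limma (3.58.1, R 4.3.3, trended variances) on log2(value + 1), with genes kept by edgeR's filterByExpr (4.0.16, minimum count 10, minimum total 15). Alternatives were edgeR and DESeq2 (1.42.0) on recovered reads, other scalings, pseudocounts, filters and thresholds, replicate number as a block, each library left out, and smooth length and GC trends removed per library (mgcv 1.9.3, GENCODE M21 lengths). Only the main limma fit was tested on simulated data, and the alternatives were not. No replicate repeated another (chi-square over degrees of freedom between replicates 18.9 to 66.2). Intervals cover counting error only.

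Genes past the threshold with a log2 fold change of at least 0.5 in size and the 6 most abundant per length (Atp6v0c-ps2 set aside) are given with every value, as are some others, and of each other lysosomal list up to 3 with the smallest p, plus some chosen after their values were seen. A gene that the rule takes is not reported here. The genes and lists were chosen with earlier results of these data known.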

Additional observations from a re-analysis of the deposited data

How the results depend on the processing

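The 20 calls among the members (18 higher, 2 lower) became 10 at a threshold of 0.01, 7 without young 1 and old 2, and 12 to 19 with each library left out, 12 without young 3. They became 22 in DESeq2 and 22 by the authors' deposited FDR, where Ctsf and Atp6ap2 passed as well. The 5 phagocyte-type calls became 3 of 5 tested at a mean of at least 50 and 4 to 5 with each library left out. The 13 general calls became 5 at 0.01, 8 with length and GC trends removed, 2 without young 1 and old 2, and 7 to 13 with each library left out, 8 without old 2, 8 without young 1 and 7 without young 3. Over all genes the 5493 calls became 1866 at 0.01, 3553 with length and GC trends removed, 1776 without young 1 and old 2, and 2589 to 6117 with each library left out. The median of phagocyte-type genes was 0.48 at a mean of at least 50 and 0.40 with the trends removed. The median of general genes was 0.28 in edgeR with library totals (an alternative chosen after seeing the data), 0.29 with upper-quartile scaling, 0.072 with the trends removed and 0.19 to 0.26 with each library left out. Upper-quartile scaling gave 3439 genes higher and 2338 lower over all genes (members 23 and 2), and edgeR with library totals 3381 and 2332 (members 22 and 2), where 2524 and 2969 passed in limma. With the trends removed Atp6v1e1 turned to -0.088, Igf2r to 0.081 and Gga1 to 0.058, and none passed there. The cause was not tested in any of these. The replicate numbers did not pair the samples (same-number correlations -0.29, -0.41 and -0.05). With the number as a replicate block the calls were 10 among members, 5 among general genes and 2711 over all genes, and with the block and trends removed 6, 2 (general), 2 (phagocyte-type) and 854, with medians of 0.40 (phagocyte-type) and 0.072 (general) and Atp6v1e1 at -0.088, Igf2r at 0.081 and Gga1 at 0.058. With 3 mice per age a value that misses the threshold does not show that levels are equal.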
